A study of Zea mays with 24 samples.

Results

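A single maize gene, GRMZM5G867147, was, by group mean, at least 4 times as high in the adaxial epidermis of the blade, ligule and sheath regions as in whole-thickness tissue of any of these regions. It was chosen from the values themselves. A gene was kept where the smallest of its 3 adaxial L1 group means was at least 10 FPKM (fragment counts scaled to transcript length and library depth) and at least 4 times the largest of its 3 all-layers group means. Of 109715 gene identifiers, 8038 reached the floor of 10 FPKM and 1 also reached the ratio, so the rule gave 1 gene and not a group of genes. The identifier was not matched in the RefSeq gene table used for names, and no name or role is given to it here.

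The L1 is the outermost cell layer of the shoot, which forms the epidermis. On the adaxial side, the side that faces the stem, epidermal cells of the maize leaf form the preligule band, a strip of small cells from which the ligule grows as a fringe between blade and sheath. Many genes of the L1 are known from the HD-ZIP IV family of transcription factors, which maize geneticists call OCL, for outer cell layer.

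Polyadenylated RNA was measured in laser-microdissected primordia of the maize line B73, in 24 libraries that form 8 groups of 3. Of these groups, 6 were wild-type leaf primordia at stage P7, numbered by age from the meristem. They were the blade, ligule and sheath regions, taken either through all cell layers (replicates 3, 4 and 5) or from the adaxial L1 only (replicates 1, 2 and 3). Ligule pieces were 100 µm high and centred on the preligule band. Blade tissue was cut from 50 µm above that piece and sheath tissue from 50 µm below it. The other two groups were all-layers tissue 400 to 900 µm above the base of the younger P6 primordia, from lg1-R plants, which carry a mutant allele of the ligule gene lg1 (liguleless1), and from their wild-type siblings. The growth chambers gave 15 h of light (25 °C) and 9 h of dark (20 °C). Each library pooled 5 to 6 plants whose RNA passed through 2 rounds of amplification. Library totals were 3818649 to 32553958 counts in the L1. They were 9970945 to 52731783 counts in P7 all layers and 15020913 to 40957592 in P6. A count above 0 was listed for 18460 to 24929 genes in the L1 libraries and for 25959 to 31175 in the all-layers libraries of P7. The part of these depth differences in the values below was not tested, and the set of replicate numbers and the tissue kind cannot be told apart.

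In the adaxial L1, GRMZM5G867147 was at 165, 178 and 253 FPKM in the 3 blade libraries. The ligule libraries were at 161, 220 and 222 FPKM, and the sheath libraries at 177, 244 and 261 FPKM. The 3 regions overlapped, and the spread inside each region was larger than the distance between their means, which were 199 ± 47.4 FPKM in blade, 201 ± 34.9 in ligule and 228 ± 44.4 in sheath (SD, n = 3 each).

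Through all layers of P7 primordia, the gene was at 54.4, 38.0 and 28.7 FPKM in blade replicates 3, 4 and 5. It was at 65.4, 41.3 and 33.8 FPKM in ligule replicates 3, 4 and 5, each above the blade library of the same number, and at 37.7, 50.5 and 45.6 FPKM in the sheath libraries. Replicate 3 was the highest library in blade and ligule and the lowest in sheath, and the regions again overlapped, with means of 40.4 ± 13.0, 46.9 ± 16.5 and 44.6 ± 6.43 FPKM (SD, n = 3 each).

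In P6, which the rule did not use, the wild-type libraries were at 54.0, 27.7 and 22.9 FPKM. The lg1-R libraries were at 30.7, 27.6 and 33.0 FPKM. Wild-type replicate 1 stood above the other 5 P6 libraries. It lay inside the range of P7 all layers, as did lg1-R replicates 1 and 3. The genotypes overlapped, with means of 34.9 ± 16.8 FPKM in wild type and 30.4 ± 2.67 in lg1-R (SD, n = 3 each).

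**Figure D1:**
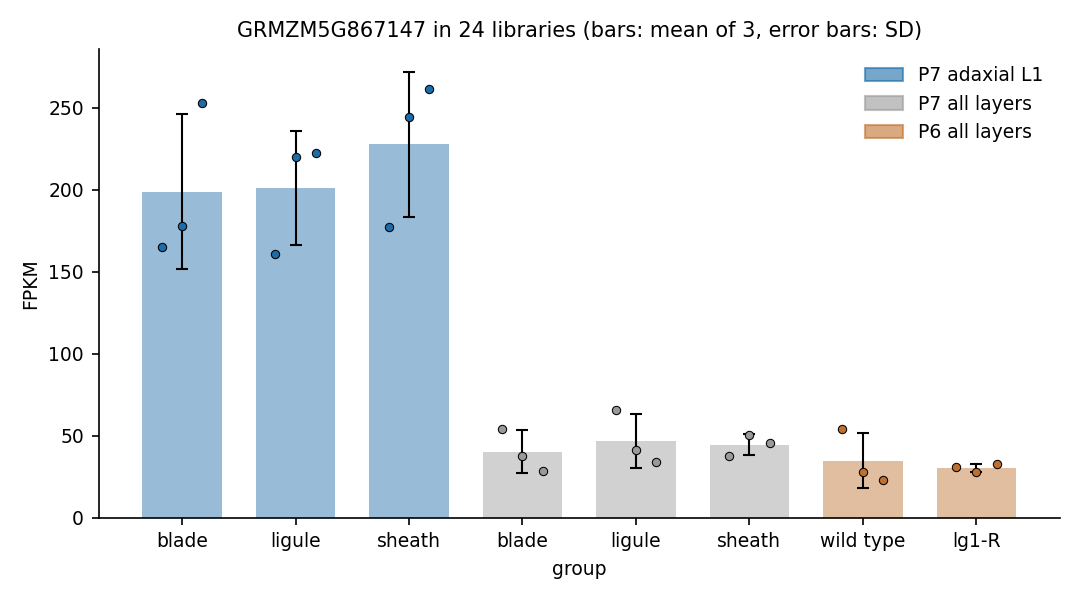
FPKM of GRMZM5G867147 in the 24 libraries, with points for libraries, bars for group means and error bars for the SD of 3 libraries. The 9 adaxial L1 libraries lie between 161 and 261 FPKM, and every all-layers library of P7 or P6 lies at 65.4 FPKM or less.

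The lowest L1 library was 2.46 times the highest all-layers library of P7, and the ratio that chose the gene, blade L1 over ligule all layers, was 4.24. Within a region, the L1 mean was 4.93 times the all-layers mean in blade, 4.29 times in ligule and 5.10 times in sheath. These ratios come from the contrast that chose the gene and carry no test. The mean over the 9 L1 libraries was 209 FPKM, 4.76 times the mean of 43.9 FPKM over the 9 all-layers libraries of the same stage. The latter was 1.35 times the mean of 32.7 FPKM over the 6 P6 libraries, which also hold all layers but come from the younger stage and another position. As the tissue is bulk, a smaller share of epidermal cells and less RNA per epidermal cell cannot be told apart either.

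From highest to lowest, the group means ran sheath L1, ligule L1, blade L1, ligule all layers, sheath all layers, blade all layers, P6 wild type and P6 lg1-R. Blade L1 and ligule all layers were the only neighbours in this order whose libraries did not overlap. By rank among all identifiers in a library, the gene stood at place 704 to 1077 in the L1, 2743 to 5325 in P7 all layers and 3167 to 6834 in P6. It was read from 2347 to 15008 counts in the L1 libraries, from 1273 to 7972 in P7 all layers and from 1158 to 5134 in P6, so that no value of it rested on a few reads.

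The study asked which transcripts differ between the ligule region and its neighbours, and these contrasts were not what chose the gene, although the rule bounded its lowest L1 mean and its highest all-layers mean. Counts were compared with the quasi-likelihood test of edgeR, with p-values adjusted by the Benjamini-Hochberg method over all genes tested in a contrast and called below 0.05. The log2 fold change (first group over second) is given with its standard error (SE) and 95% interval. The p-values measure the spread between these libraries.

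GRMZM5G867147 was called in none of the 3 adaxial L1 contrasts. Ligule against blade gave a log2 fold change of -0.13 (SE 0.22, interval -0.60 to 0.34, adjusted p = 0.848 by edgeR), in a contrast where 6.48% of the 18761 genes tested were called. The sign was not settled, since ligule has the higher FPKM mean. Ligule against sheath gave -0.22 (SE 0.22, interval -0.69 to 0.25, adjusted p = 0.668 by edgeR), with 6.17% of genes called. Blade against sheath gave -0.10 (SE 0.22, interval -0.57 to 0.37, adjusted p = 0.924 by edgeR), with 1.96% called. The interval for ligule against sheath spans 0.618 to 1.19 times the sheath level, and a missed threshold does not show equal levels.

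In all layers of P7, the gene was again called in none of the 3 contrasts. Its log2 fold change was 0.07 for ligule against blade (SE 0.29, interval -0.55 to 0.68, adjusted p = 0.950 by edgeR), where 4.75% of the 22205 genes tested were called. In the whole table, same-numbered blade and ligule libraries deviated together, while sheath replicates 3 and 4 did not follow their numbers. A fit of the 6 blade and ligule libraries with the replicate number as a block, added after the data were seen, gave 0.06 (adjusted p = 0.876 by edgeR) and called 2879 genes in place of 1054. For ligule against sheath it was -0.01 (SE 0.29, interval -0.63 to 0.60, adjusted p = 0.994 by edgeR), where 2.79% were called. For blade against sheath it was -0.08 (SE 0.29, interval -0.70 to 0.54, adjusted p = 0.982 by edgeR), where 1.58% were called.

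The P6 contrast addressed genes that act downstream of lg1, a transcription factor gene needed for the ligule. In the libraries labelled lg1-R, the lg1 transcript (GRMZM2G036297) was at 1.59, 1.42 and 2.33 FPKM, against 0.465, 1.77 and 0.998 FPKM in wild type. These ranges overlapped, so that the lg1 transcript level does not separate the genotypes. GRMZM5G867147 was not called between them, with a log2 fold change of -0.12 for lg1-R over wild type (SE 0.30, interval -0.79 to 0.54, adjusted p = 0.966 by edgeR). In this contrast 0.00471% of the 21249 genes tested were called, which is 1 gene. The value rested on wild-type replicate 1. Without it the log2 fold change was 0.42, with an unadjusted p of 0.037 and an adjusted p of 0.83 by edgeR.

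**Figure D2:**
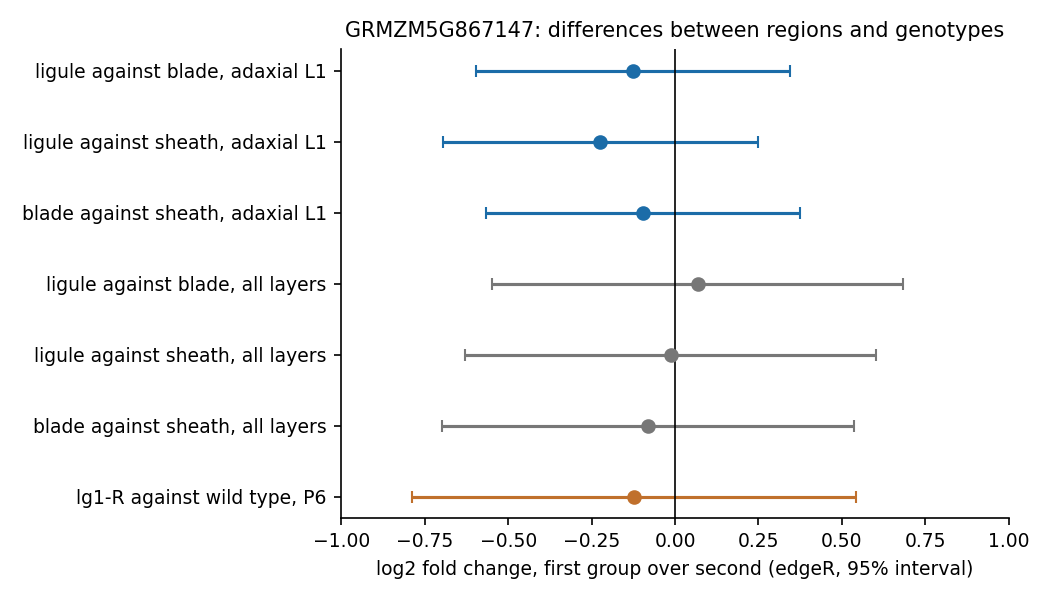
Log2 fold change of GRMZM5G867147 (x axis, first group over second) in the 7 contrasts, with the 95% interval of the edgeR fit as a bar. All 7 intervals cross 0, and those of the L1, of P7 all layers and of P6 are drawn in separate colours.

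Over the 7 contrasts, 0 had an unadjusted p below 0.05 for this gene in edgeR, where the lowest was 0.324, and 0 did in DESeq2.

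The gene's place at the edge of the whole table was described from the same values that chose it. Among the 8038 genes at the floor, the median ratio of smallest L1 mean to largest all-layers mean was 0.682 and the 99th percentile was 1.77. A ratio of at least 2 was reached by 56 genes, of at least 2.5 by 18 and of at least 3 by 5. In 124 genes, or 1.54%, every L1 library lay above every all-layers library of P7, and GRMZM5G867147 was 1 of them. With the tissue kinds exchanged, 157 genes had all-layers means of at least 10 FPKM and at least 4 times the largest L1 mean.

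Just outside the ratio, GRMZM2G091226 had a ratio of 3.92, with L1 means of 53.7 ± 32.5, 95.6 ± 25.2 and 63.7 ± 22.4 FPKM in blade, ligule and sheath, and at most 13.7 ± 4.26 FPKM in all layers (SD, n = 3 each). Its L1 libraries spread from 26.9 to 124 FPKM, a wider range relative to its level than that of GRMZM5G867147. GRMZM2G033222, with a ratio of 3.60, was far more abundant, at 2304 ± 433, 1614 ± 250 and 2959 ± 450 FPKM in the L1 of blade, ligule and sheath and 333 to 448 FPKM by group mean in all layers. GRMZM2G118063 had a ratio of 3.25 and GRMZM2G066598 one of 3.12. GRMZM2G118063 was at 143 to 190 FPKM by group mean in the L1, 36.4 to 44.1 in all layers of P7 and 64.4 to 69.5 in P6, so that P6 lay above P7 all layers.

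Of these 4 genes, GRMZM2G033222 was the only one called in any of the 7 contrasts. In the L1 it was lower in ligule than in sheath, with a log2 fold change of -0.91 (SE 0.20, adjusted p = 0.0154 by edgeR) and with no ligule library reaching the lowest sheath library. That call was lost without ligule L1 replicate 1 or 2 or sheath L1 replicate 2 or 3, where the adjusted p by edgeR reached 0.081. Ligule against sheath in the L1 called 6.17% of all genes tested, in either direction. In this contrast, 4 of the 7 HD-ZIP IV genes, the outer-layer markers described further on, were called lower in ligule and 0 higher. They were OCL6 (log2 fold change -1.86), ocl3 (-1.67), ocl1 (-1.33) and OCL8 (-1.22), and the part of this in the value of GRMZM2G033222 was not tested.

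**Figure D3:**
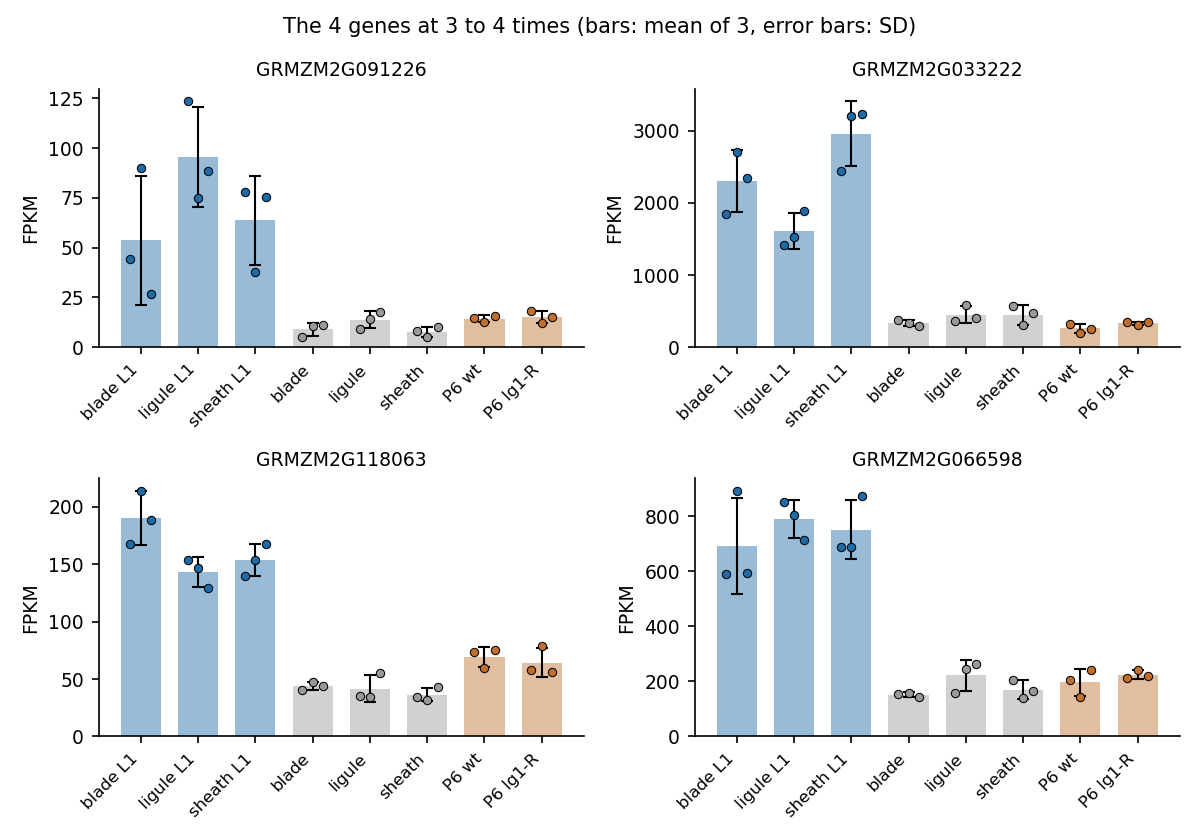
FPKM of the 4 genes with a ratio of 3 to 4 in the 8 groups, with points for libraries, bars for means and error bars for the SD of 3 libraries; each panel has its own y axis. All 4 have L1 libraries above every all-layers library, and GRMZM2G118063 is higher in P6 (59.4 FPKM in its lowest wild-type library) than in P7 all layers (55.7 in the highest).

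Below the floor, 3 genes with an all-layers mean above 0 reached the ratio with an L1 mean under 10 FPKM. A further 5 genes had all-layers means of 0 and so no ratio, with a smallest L1 mean above 0 and at most 0.108 FPKM. GRMZM2G008305 had a smallest L1 mean of 3.06 FPKM and a ratio of 5.35, and GRMZM2G302089 had 1.47 FPKM and a ratio of 4.04. GRMZM2G544539 rested on 1 read in the 9 all-layers libraries and on 1, 2 and 3 reads in 3 of the 9 L1 libraries, so that no ratio is given for it. In all layers of P7, GRMZM2G008305 was read from 4 to 22 counts a library, against 11 to 192 in the L1.

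**Figure D4:**
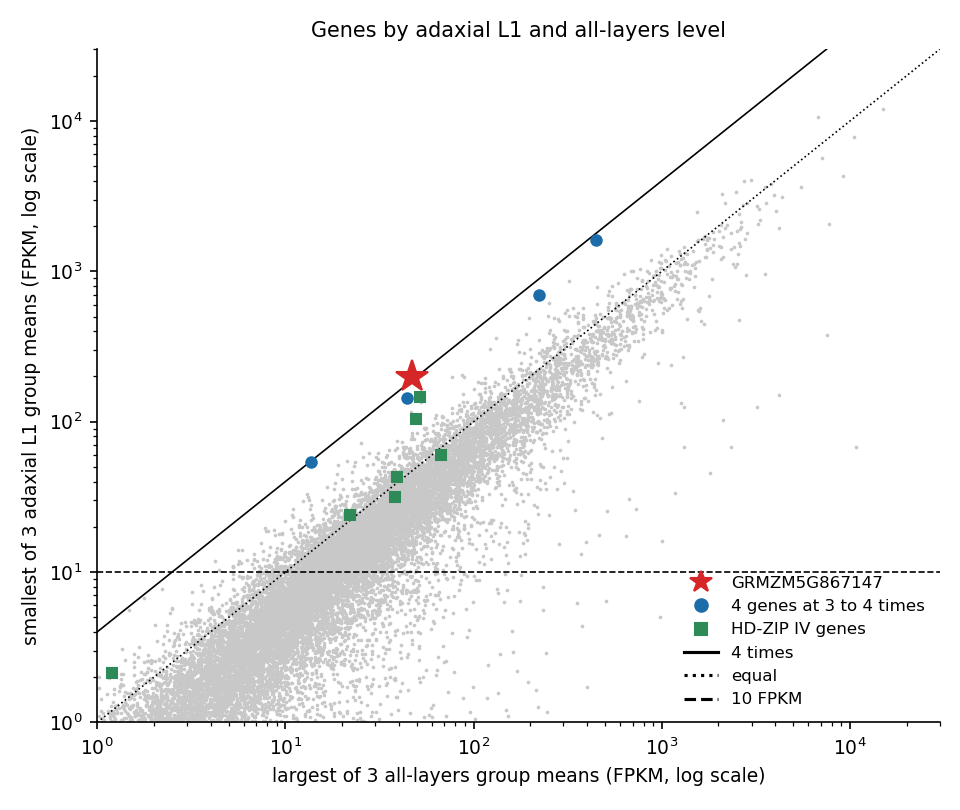
Smallest of the 3 adaxial L1 group means (y axis) against the largest of the 3 all-layers group means (x axis), both in FPKM on log scales, for genes at 1 FPKM or more on both. GRMZM5G867147 is the only gene above both the line at 4 times and the line at 10 FPKM; the 4 genes at 3 to 4 times and the 7 HD-ZIP IV genes are marked.

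The genes most like GRMZM5G867147 were ranked by the Pearson r of log2(FPKM + 1) over the 24 libraries, among 19491 genes with a mean of at least 1 FPKM. They were GRMZM2G445613 (r = 0.983), GRMZM2G033222 (0.950), GRMZM2G041980 (0.948), GRMZM2G136513 (0.939) and GRMZM2G004748 (0.934). This r spans libraries that differ in tissue kind and depth, and 23 genes in all reached an r of 0.9. Inside the L1 and inside P7 all layers the values parted. For GRMZM2G445613, r was 0.908 over the 9 L1 libraries, 0.739 over the 9 all-layers libraries of P7 and 0.708 over the 6 P6 libraries. As these same libraries picked it for the highest r, its values within a kind are no separate support. The share of all genes with such an r within a kind was not computed. For the other genes listed, r was 0.176 to 0.511 in the L1 and -0.0038 to 0.326 in P7 all layers. In P6 their r was 0.317 to 0.801. The highest of these, for GRMZM2G041980, lay above the 0.708 of GRMZM2G445613. GRMZM2G445613 was at 363 ± 44.5, 377 ± 40.2 and 427 ± 68.7 FPKM in the L1 of blade, ligule and sheath and at 107 to 132 FPKM by group mean in all layers, with 91.1 FPKM in P6 wild type and 77.0 in lg1-R. Of the 5, GRMZM2G041980 alone carried a name, NIP1-1, and encodes a membrane channel of the aquaporin family. It was at 431 ± 30.5, 302 ± 19.5 and 488 ± 93.5 FPKM in the L1 of blade, ligule and sheath and at 101 to 122 FPKM by group mean in all layers.

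The tissue kind was checked on genes matched by name to lists chosen with earlier results of these data known. HD-ZIP IV genes, which mark the outer layer, were 7 in number. Their summed level was 375 to 862 FPKM in the L1 libraries (median 683) and 185 to 294 FPKM in all layers (median 220), with no overlap. Of the 7, 5 had every L1 mean above every all-layers mean and 0 had every one below, beside 1662 above and 9638 below among 38047 identifiers with signal. Many of those identifiers lie below 10 FPKM, and 6 of the 7 were at that floor. OCL14, 1 of the 5, was not. Among the 8038 genes at the floor, 14.5% had a ratio of at least 1. Yet none of the 7 HD-ZIP IV genes met the rule. The highest ratios were 2.80 for ocl4 and 2.1 for ocl5, and ocl1 and ocl3 were below 1, at 0.896 and 0.823. Among the L1 libraries, ocl1 was at 60.5 FPKM by group mean in ligule against 134 in blade and 148 in sheath, and ocl3 at 31.5 against 87.3 and 97.5. In the L1, 3 of the 7 genes were called lower in ligule than in blade and 4 lower than in sheath by edgeR. Among all genes tested, 6.48% and 6.17% were called in these contrasts, in either direction. GRMZM5G867147 was called in neither, and nor were ocl4, ocl5 and OCL14.

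Of 17 genes matched by symbol to light reactions and C4 photosynthesis, which take place in mesophyll and bundle sheath cells, 12 had every L1 mean below every all-layers mean and 0 had every one above. Their summed level was 42.2 to 103 FPKM in the L1 libraries and 105 to 247 in all layers, and 3 of them were at 0 in every L1 library, 1 of which was at 0 in all 24 libraries. Most of the L1 sum came from psat1, whose symbol is that of phosphoserine aminotransferase, an enzyme of serine synthesis. Without it the other 16 summed to 0.821 to 37.1 FPKM in the L1 libraries and 40.9 to 141 in all layers. Among these 16, which include the 12 below, Pep1 (GRMZM5G899080) had higher L1 than all-layers means in blade (27.3 against 9.50 FPKM) and sheath (10.1 against 3.44). In ligule, Pep1 was lower in the L1 (3.00 against 4.32 FPKM). The L1 mean was also higher for me3 in ligule alone (3.23 against 2.53 FPKM) and for PSBQ in blade alone (0.498 against 0.114). Of the 11 genes on the vascular list, 1 was above and 4 below, with summed levels of 128 to 296 against 107 to 224 FPKM. These sums were nearly all rld1 and rld2, HD-ZIP III genes known for adaxial identity. The other 9, laccases, sut1 and phb1, summed to 0 to 1.18 FPKM in the L1 libraries and 0.0989 to 59.6 in all layers. Of 9 meristem genes, 1 was above and 0 below, with summed levels of 22.1 to 71.0 against 19.6 to 38.1 FPKM. Of the 3 cuticle and wax genes, 0 were above and 0 below, with summed levels of 72.9 to 395 against 23.7 to 121 FPKM. Here gl15 and AD1 reached the floor of 10 FPKM, with ratios of 0.67 and 0.918. The third, gl1, was at 0 in the L1 and at most 0.0123 FPKM by group mean in all layers, so it does not bear on the layer. The 2 layer-signalling genes, with 0 above and 0 below, summed to 12.8 to 50.9 against 29.9 to 42.2 FPKM. The stomatal gene, neither above nor below, was at 11.8 to 51.8 against 13.3 to 25.6 FPKM. Of 28 aquaporin genes, 1 was above and 6 below, and 12 were at 0 in every L1 library. The 1 above was NIP1-1, already listed among the genes most alike, so that this count is no separate check. The part of cell makeup in the level of GRMZM5G867147 was not tested.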

How the data were processed

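The authors deposited 1 table of estimated counts and 1 table of FPKM per gene, with 24 libraries each. The submitters' processing notes name TopHat2 2.0.10 and Cuffdiff 2.1.1, with no role for either. For genome build, annotation and strand, nothing is given in the sources used here. Deposited FPKM was averaged per group for the rule. Deposited expected counts were rounded to whole numbers and tested with edgeR 4.0.16 in R 4.3.3 (TMM, filterByExpr with a minimum count of 10 and total of 15, robust quasi-likelihood fit). Each P7 tissue kind was fitted as 9 libraries and P6 as 6, and the scripts were tested on simulated data. DESeq2 1.42.0 and limma 3.58.1 (log2 of FPKM plus 1 or 0.1) served as alternatives, beside other normalization, no filter, a replicate block, 1 fit of all libraries and leaving out each library.

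The gene and all lists were chosen with earlier results of these data known. Named genes were the one kept by the rule, those just outside each threshold, those at a ratio of 3 or more and the 5 most alike. Replicates differed beyond sampling noise (chi-square per degree of freedom at least 11.97), so none was merged. Every same-numbered pair had a correlation of deviations over 0.1 in 1 contrast, ligule against blade in all layers (0.411, 0.346 and 0.230). Ligule all-layers replicates 3, 4 and 5 were at -0.448, -0.352 and 0.264 with the sheath replicates of the same number. Ligule replicate 3 was at 0.478 with sheath replicate 4, and ligule replicate 4 at 0.471 with sheath replicate 3. Names came from RefSeq's table of Zm-B73-REFERENCE-NAM-5.0 and matched 18259 identifiers to 1 locus. Searches for promoter motifs and protein cysteine patterns were planned and not run here.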

Additional observations from a re-analysis of the deposited data

How the results depend on the processing

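The rule's outcome depended on its settings. It kept 0 genes with group medians (ratio 3.90), with every library at the thresholds and at a ratio of 8. It kept 4 with normalised CPM, 5 at a ratio of 3 and 7 within each region, a setting added after the data were seen. A floor of 5 or 20 FPKM left 1 gene. Leaving out 1 library gave 1 to 2 genes, with GRMZM5G867147 at ratios of 3.66 to 4.46. Without ligule all-layers replicate 5 or blade L1 replicate 3, it was lost and GRMZM2G091226 kept instead.

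The gene was called in 0 of 117 alternative fits over the 7 contrasts, and 1 had an unadjusted p below 0.05. Its log2 fold change turned in 19 of them, and the cause was not tested. Ligule against blade in the L1 was 0.026 in all 3 limma fits. Ligule against sheath in all layers was 0.017 with no filter and 0.025 in all 3 limma fits. The replicate block gave 0.0059 for lg1-R against wild type and changed no call of the gene. Leaving out 1 library gave -0.26 to 0.027, -0.39 to -0.094 and -0.26 to 0.057 for ligule against blade, ligule against sheath and blade against sheath in the L1. In all layers the ranges were -0.23 to 0.33, -0.31 to 0.20 and -0.34 to 0.12, and in P6 -0.36 to 0.42.

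Genes called in the whole table, in the same order of contrasts, numbered 1216, 1158, 367, 1054, 619, 350 and 1. DESeq2 gave 1958, 2046, 879, 1782, 1062, 677 and 148, and no filter gave 1886, 1872, 906, 1984, 1214, 827 and 482. One fit of all 24 libraries gave 3495, 3558 and 1786 in the L1, 352 and 166 for the sheath contrasts in all layers, and 0 in P6. Blade against sheath in all layers had 181 with limma and no filter and 185 with the replicate block. Ligule against blade in all layers had 2879 in a replicate block of those 6 libraries alone, a fit added after the data were seen. In P6, limma gave 9 and 6 with pseudocounts of 1 and 0.1 and 0 with no filter, and the block gave 4. Leaving out 1 library gave 706 to 1224, 640 to 1322, 201 to 397, 598 to 1600, 374 to 578, 113 to 355 and 0 to 58.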

Other observations

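A rule that asks for 4 times within each region, with the floor kept at 10 FPKM, was added after the data were seen. It kept 7 genes, GRMZM5G867147 among them, and 4 without blade L1 replicate 2. Without that library GRMZM2G071101, GRMZM2G445676 and GRMZM2G091226 were lost, with blade L1 means of 3.19, 6.44 and 35.6 FPKM. For GRMZM2G445676, whose blade L1 libraries held 7, 28 and 3 counts, that mean lay below its blade all-layers mean of 8.53 FPKM. Leaving out any other P7 library kept 6 to 9 genes. Without ligule all-layers replicate 5, this rule kept 8 genes and lost GRMZM5G867147 itself. GRMZM2G030636 and GRMZM2G118063 were gained there.

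GRMZM2G091226 was described above. GRMZM2G004748 was at 19.8 ± 3.33, 34.1 ± 2.51 and 38.8 ± 11.6 FPKM in the L1 of blade, ligule and sheath and at 4.44 to 7.82 FPKM by group mean in all layers (SD, n = 3 each). GRMZM5G892991 was at 14.0 ± 5.23, 34.1 ± 7.31 and 22.5 ± 4.41 FPKM in the L1 of blade, ligule and sheath, and its L1 means were 5.81 to 7.36 times the all-layers means of the same region (SD, n = 3 each).

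The other three differed widely between regions in both tissue kinds. GRMZM2G004106 was at 1081 ± 115 FPKM in ligule L1, 41.5 ± 19.0 in blade L1 and 50.0 ± 31.4 in sheath L1, and at 193 ± 68.1 FPKM in ligule all layers against 2.97 ± 2.00 in blade (SD, n = 3 each). In P6 it was at 5.30 ± 3.32 FPKM in wild type and 0.258 ± 0.225 in lg1-R, which did not pass the threshold (log2 fold change -4.13, SE 0.67, adjusted p = 0.0821 by edgeR). GRMZM2G071101 was at 555 ± 161 FPKM in ligule L1 and 194 ± 37.2 in sheath L1, against 12.6 ± 16.4 in blade L1. GRMZM2G445676 was at 1625 ± 227 FPKM in ligule L1 and 1055 ± 318 in sheath L1, against 35.9 ± 51.1 in blade L1. A common bar across regions leaves these genes out, since their all-layers ligule means exceed their blade L1 means.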
